A study of Mus musculus with 6 samples.

Results

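The genes described are those of the mitochondrial ribosomal proteins, taken as every annotated gene of the count tables whose symbol begins with Mrpl or Mrps and a digit, without pseudogene names. The rule found 76 of 23229 annotated genes. Of these, 49 encode proteins of the large subunit, 26 encode proteins of the small subunit, and Mrps36 was assigned to neither, since its product is better known as a part of the 2-oxoglutarate dehydrogenase complex. Mrps18a and Mrps30 were counted with the large subunit, where their products sit despite their names. A bacterial counterpart at the same place in the ribosome is known for 45 of the encoded proteins, and the 30 others of the subunits are specific to the mitochondrial ribosome.

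RNA came from sperm of adult C57BL/6 mice of the transgenic line HP3.1, 4 months old, with sperm taken from the cauda epididymides and the vas deferens. The study set sperm nuclei, freed by sonication and recovered through dense sucrose and caesium chloride with detergent, beside whole sperm that skipped those steps, to learn where sperm RNAs lie. There were 2 nuclei preparations and 1 whole-sperm preparation, each sequenced in 2 runs that share 1 column of the tables, so n = 2 against n = 1. All groups carried the transgene, the labels tie no preparation to an animal, and whole sperm has no replicate. P-values therefore measure only how far the pair of nuclei preparations differed, as estimated over all genes, and such differences may be technical. An exact permutation test of 2 libraries against 1 cannot go below a two-sided p of 0.333.

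Mitochondria translate the few messenger RNAs of their own genome on ribosomes whose RNA is made inside the organelle, while their proteins are all encoded in the nucleus, translated in the cytosol and imported. These proteins are needed in about equal amounts, and their genes are active in most tissues. Sperm keep mitochondria in the midpiece of the tail, outside the head that holds the nucleus, and mature sperm nuclei transcribe little or nothing. The RNAs measured are thus thought to be mostly left over from earlier stages.

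The nuclei libraries held 5487306 and 6648848 feature counts, and the whole-sperm library held 8316345. All 16 sperm and spermatid markers were counted in every library, with summed levels of 5777, 5671 and 3186 CPM (counts scaled to library size with TMM factors) in that order. Marker genes of the epididymal epithelium summed to 1984, 1948 and 11780 CPM, with 13, 9 and 11 of 20 genes counted and 2 called lower in nuclei. Those of the vas deferens summed to 823.5, 835.1 and 5579 CPM over 6 genes. Nearly all of that sum came from a single gene, Akr1b7 (816.0, 835.1 and 5556 CPM). General epithelial genes summed to 148.7, 223.6 and 740.0 CPM over 15 genes. Of these, edgeR called 1, Cldn8, lower in nuclei (adjusted p = 0.0416). Leukocyte genes summed to 76.5, 19.02 and 81.1 CPM, stromal and smooth muscle genes to 173.7, 99.5 and 155.9 CPM, and 4 of 5 erythrocyte genes had no count. The epithelial levels are higher in whole sperm, the same direction as that of most mitochondrial ribosomal protein genes below, and their part in those results was not tested. In these bulk libraries, fewer cells of a type and less RNA per cell cannot be told apart.

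Most mitochondrial ribosomal protein genes had lower levels in nuclei than in whole sperm, but no single gene passed the test. With libraries always in the order nuclei 1, nuclei 2, whole sperm, all 76 together took 2991, 3387 and 6634 counts. Their share of feature counts was 0.0545% in nuclei 1 (95% exact Clopper-Pearson interval 0.0526 to 0.0565), 0.0509% in nuclei 2 (0.0492 to 0.0527) and 0.0798% in whole sperm (0.0779 to 0.0817). Both nuclei shares lay below the whole-sperm share, and the log2 difference of the summed share was -0.60. The intervals cover counting error only. Counted gene by gene, 51 of the 75 genes with a count (68.0%) had a log2 difference below 0, against 49.7% of all annotated genes with a count. Both nuclei libraries lay below whole sperm for 41 of them (54.7%), against 40.9% of all such genes, and both lay above it for 8 (10.7%), against 23.2%. The median log2 difference, taken from the mean of both nuclei levels with a prior count of 2, was -0.75 (quartiles -2.41 to 0.65), against 0.01 over all annotated genes. Set against whole sperm one at a time, nuclei 1 gave a median of -0.71 and nuclei 2 a median of -2.01.

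None of the 68 genes that passed the filter on low counts was called by edgeR's quasi-likelihood test after Benjamini-Hochberg adjustment, which called 20 of 14397 annotated genes (0.139%). Standard errors of the log2 fold changes ran from 0.89 for Mrpl37 to 6.68 for Mrpl34, so a missed call does not show equal levels. The 2 genes with an unadjusted p under 0.05 were both lower in nuclei, where 2.33% of all annotated genes tested had such a p, and 0 were higher, against 3.11%. They were Mrps14 (unadjusted p = 0.0323, adjusted p = 0.728) and Mrps6 (unadjusted p = 0.0377, adjusted p = 0.776). DESeq2 gave 1 gene, Mrps14, an unadjusted p under 0.05, against 7.93% of annotated genes, and called 0 after adjustment over all features, against 0.528%. When libraries were scaled to the ERCC spike-ins, synthetic RNAs added to the samples in amounts not given in the sources used here, edgeR called Mrps14 (adjusted p = 0.0248) and Mrps6 (adjusted p = 0.0173), both lower in nuclei, where 3.66% of annotated genes were called. That scaling moved the median of all annotated genes to -1.26 and that of the mitochondrial ribosomal protein genes to -2.098.

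**Figure D1:**
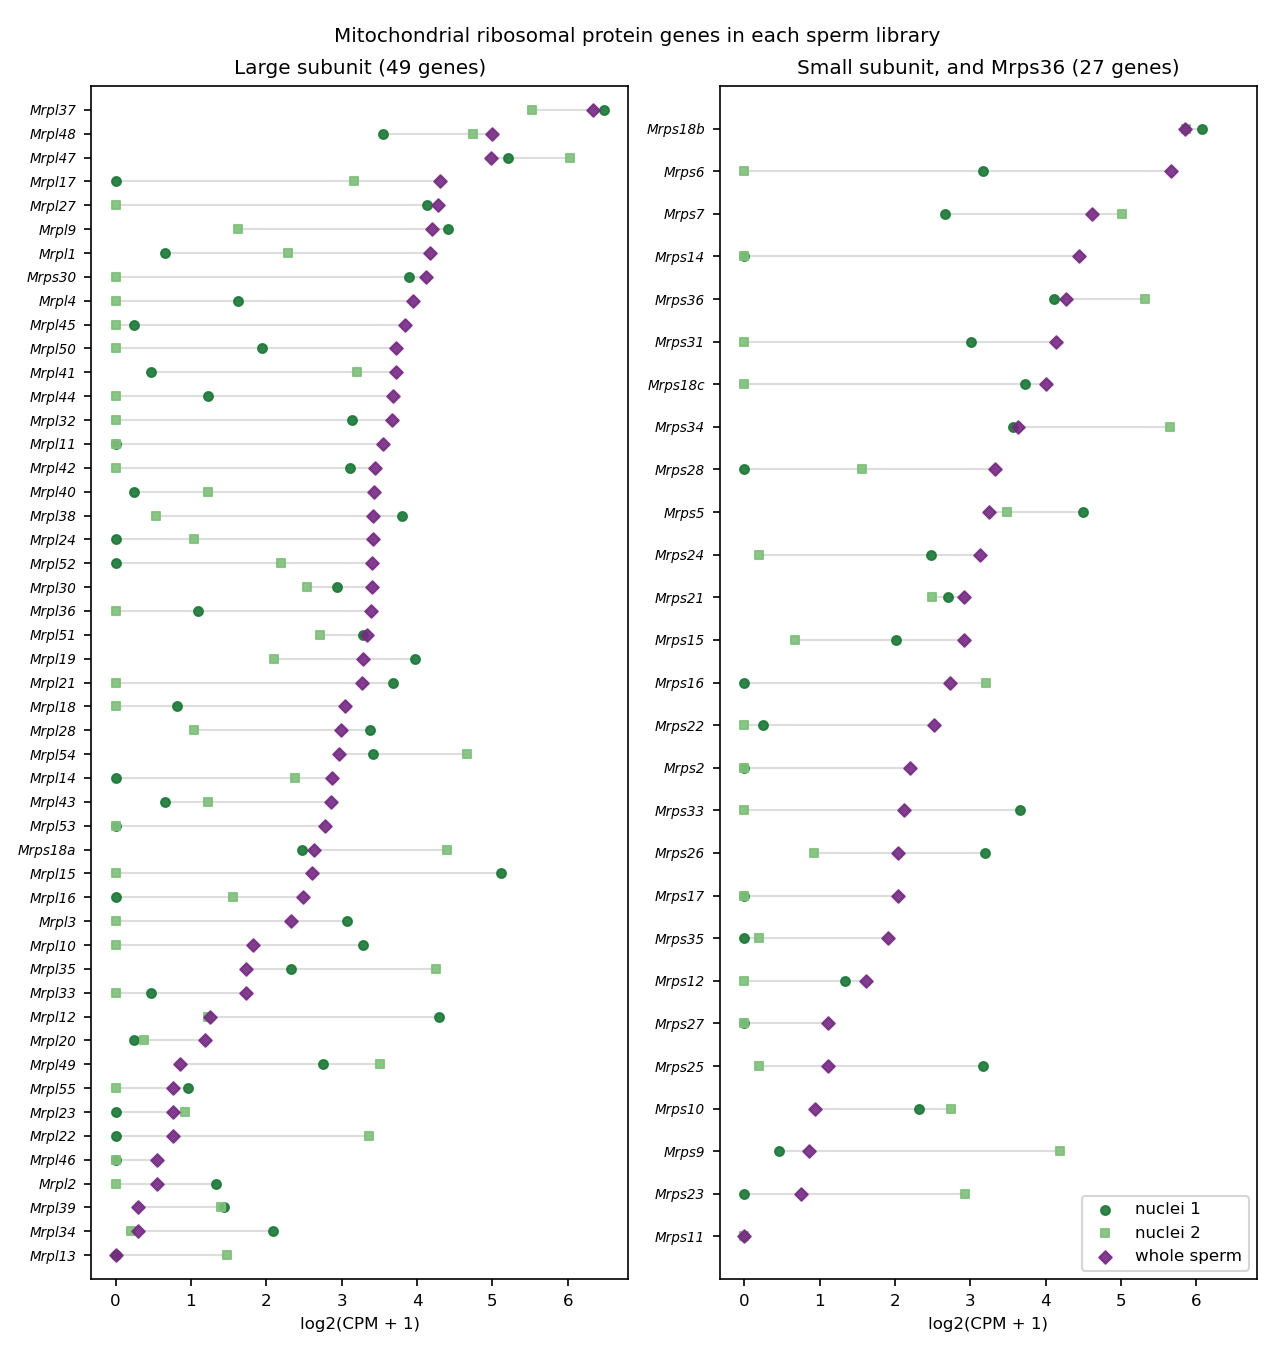
Level of each mitochondrial ribosomal protein gene in each library on the log2(CPM + 1) scale, with large-subunit genes at left and small-subunit genes and Mrps36 at right, ordered by whole sperm. Points are single libraries and grey lines join them; Mrpl37 and Mrps18b are high in every library, while many genes counted in whole sperm sit at 0 in 1 or both nuclei libraries.

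A few genes held much of the total. In each library the first 3 genes took 33.4%, 33.6% and 24.3% of the counts of these genes, and the median gene had 15.5, 5.0 and 59.5 counts. Among large-subunit genes, Mrpl37 led in nuclei 1 and whole sperm. It encodes a protein found only in mitochondrial ribosomes and lies on mouse chromosome 4 at 107055874 to 107066868 (build mm10, minus strand). Its counts were 463, 302 and 692, or 88.3, 45.2 and 79.9 CPM in nuclei 1, nuclei 2 and whole sperm. The whole-sperm level lay between those of the nuclei libraries, and the log2 fold change of nuclei over whole sperm was -0.26 (SE 0.89, edgeR adjusted p = 1.00).

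Mrpl47, the counterpart of bacterial L29, had 188, 431 and 264 counts, or 35.8, 64.6 and 30.5 CPM. Both nuclei libraries were above whole sperm, with a log2 fold change of 0.72 (SE 1.10, edgeR adjusted p = 0.959). Mrpl48, specific to mitochondria, had 56, 173 and 268 counts, or 10.7, 25.9 and 30.9 CPM. Here both nuclei libraries were below whole sperm, with a log2 fold change of -0.76 (SE 1.53, edgeR adjusted p = 0.988). Mrpl9, the counterpart of bacterial L9, had 106, 14 and 151 counts, and whole sperm again lay between the nuclei libraries at 20.2 and 2.097 CPM. Mrpl54, also specific to mitochondria, had 51, 162 and 59 counts, and at 9.72, 24.3 and 6.81 CPM both nuclei libraries were above whole sperm.

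The median log2 difference was -0.75 over the 49 large-subunit genes and -1.17 over the 25 small-subunit genes with a count, an order that turned around among the genes that passed the low-count filter (-1.12 and -0.80). Of all the genes with a count, 35 large-subunit genes (71.4%) and 16 small-subunit genes (64.0%) had a difference below 0. Genes with a bacterial counterpart had a median of -0.92 and the mitochondria-specific ones a median of -0.98. The 10 mitochondria-specific genes of the small subunit had a median of 0.31, with 4 of 10 below 0, but each nuclei library by itself gave a negative median (-0.64 for nuclei 1, -2.11 for nuclei 2). Because nuclei levels are averaged before the logarithm, a gene high in 1 nuclei library and at 0 in the other follows the high one. Mrps33, for example, had 61, 0 and 29 counts and a difference of 0.75, so the median of 0.31 does not show higher levels in both nuclei libraries. Small-subunit genes with a bacterial counterpart had a median of -1.26, with 12 of 15 below 0, and -1.04 and -2.99 with each nuclei library by itself. These differences between classes were not tested.

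In the small subunit, Mrps18b was the steadiest of the abundant genes. Its product is related to bacterial S18 but holds a place found only in mitochondrial ribosomes, so it was counted as mitochondria-specific. The gene lies on chromosome 17 at 35910379 to 35916389 (minus strand). Its counts were 347, 380 and 492, or 66.2, 56.9 and 56.8 CPM, with a log2 fold change of 0.12 (SE 0.94, edgeR adjusted p = 1.00). Mrps6, the counterpart of bacterial S6, had 42, 0 and 429 counts, or 8.01, 0 and 49.5 CPM. Both nuclei libraries were far below whole sperm, with a log2 fold change of -3.63 (SE 1.75, edgeR adjusted p = 0.776). Its exons overlap those of Slc5a3, a myo-inositol transporter gene, on the same strand, and Slc5a3 had 133, 11 and 427 counts, so the libraries rank in the same order for both.

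Mrps34, specific to mitochondria, had 57, 328 and 99 counts, or 10.9, 49.1 and 11.4 CPM. Only nuclei 2 was above whole sperm, and the log2 fold change was 1.39 (SE 1.62, edgeR adjusted p = 0.909). Mrps7, the counterpart of bacterial S7, had 28, 209 and 203 counts, or 5.34, 31.3 and 23.4 CPM, with whole sperm between the nuclei libraries. Mrps5, the counterpart of bacterial S5, had 113, 68 and 74 counts, or 21.5, 10.2 and 8.54 CPM, and both nuclei libraries were above whole sperm. Mrps36, outside both subunits, had 85, 259 and 158 counts, or 16.2, 38.8 and 18.2 CPM, and only nuclei 2 was above whole sperm.

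The 8 genes with both nuclei libraries above whole sperm, named after their values were seen, were Mrpl35, Mrpl39, Mrpl47, Mrpl49, Mrpl54, Mrps5, Mrps10 and Mrps18b. Of these, Mrpl49, specific to mitochondria, had the highest log2 difference, 2.92, with 30, 69 and 7 counts. In the authors' values per transcript length (RPKM, described below) Mrpl49 stood at 0.946, 2.20 and 1.29, so nuclei 1 was below whole sperm there. Its exons overlap those of Syvn1 on the opposite strand, which had 157, 817 and 485 counts. None of the 8 passed the test by edgeR.

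With 0 counts in both nuclei libraries, 7 of the 75 genes with a count were counted only in whole sperm: Mrpl11, Mrpl46, Mrpl53, Mrps2, Mrps14, Mrps17 and Mrps27. The share was similar over all annotated genes with a count, 1563 of 17096. Among the 7, Mrps14, the counterpart of bacterial S14, had the highest whole-sperm count. It had 0, 0 and 179 counts, or 20.7 CPM in whole sperm. Against a floor of 3 counts per library, its level was 40.45-fold lower in nuclei. Mrpl11, counterpart of bacterial L11 at the base of the ribosomal stalk, had 0, 0 and 93 counts and was 21.0-fold lower by this measure. For Mrpl53 the counts were 0, 0 and 51, or 11.5-fold lower, and for Mrps2 they were 0, 0 and 31, or 7.005-fold lower. The floor does not allow for differences between preparations, so these folds are not lower bounds. Mrpl15, for example, had 176 counts in nuclei 1 and 0 in nuclei 2. Of the others, Mrps17 had 27 counts in whole sperm, Mrps27 had 10 and Mrpl46 had 4. In the nuclei libraries, 3 counts correspond to 0.572 and 0.449 CPM. The reverse pattern, counted only in nuclei, was found for 1 gene, Mrpl13, with 0, 12 and 0 counts. It was found for 2466 of the 17096 annotated genes with a count. No count fell on Mrps11 in any library.

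The start regions of 3 of these genes are shown as examples of patterns met here. Mrps14 was counted only in whole sperm, Mrpl48 in every library, and Mrpl52 in nuclei 2 and whole sperm but not in nuclei 1. None is from the 23 genes counted in nuclei 1 and whole sperm but not in nuclei 2. Each region shown is the 250 bases before the gene's start (RefSeq, GRCm38.p6, equal to mm10), written 5′ to 3′ on the gene's strand. Capitals mark a match to the ETS motif CCGGAAG or its reverse complement CTTCCGG, and windows that touch an annotated exon were not shown.
Mrps14, chr1:160194965-160195214, plus strand: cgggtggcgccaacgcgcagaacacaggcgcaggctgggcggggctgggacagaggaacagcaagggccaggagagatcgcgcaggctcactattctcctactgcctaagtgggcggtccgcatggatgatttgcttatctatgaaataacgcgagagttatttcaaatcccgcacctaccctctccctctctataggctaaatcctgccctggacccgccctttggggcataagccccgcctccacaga
Mrpl48, chr7:100608302-100608551, minus strand: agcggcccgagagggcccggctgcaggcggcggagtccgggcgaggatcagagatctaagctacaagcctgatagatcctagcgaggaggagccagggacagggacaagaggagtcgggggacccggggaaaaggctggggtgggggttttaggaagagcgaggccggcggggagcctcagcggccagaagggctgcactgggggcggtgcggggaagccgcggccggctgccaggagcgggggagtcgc
Mrpl52, chr14:54426659-54426908, plus strand: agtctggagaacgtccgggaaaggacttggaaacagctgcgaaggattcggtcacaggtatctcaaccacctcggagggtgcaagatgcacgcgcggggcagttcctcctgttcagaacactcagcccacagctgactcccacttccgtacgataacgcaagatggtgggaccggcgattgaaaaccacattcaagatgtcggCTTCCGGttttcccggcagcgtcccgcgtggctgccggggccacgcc

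In Mrpl52 the match begins at position -47, counted back from the gene's start, while the Mrps14 and Mrpl48 windows hold none of the motifs searched. Factors of the ETS family, NRF1 and YY1 are known to act on many nuclear genes for mitochondrial proteins. Start regions were found for 67 of the 76 genes. Of these, 15 were free of annotated exons, and the shares that follow use all 67. The ETS letters occurred on either strand in 16 of 67 (23.9%), against 7.05% of 27025 start regions of the same length. The NRF1 letters GCGCATGCG occurred in 7 (10.4%), against 1.49%, and the YY1 letters AAGATGGC in 4 (5.97%), against 1.59%. At least 1 of the 3 was found in 24 (35.8%), against 9.71%. The letters of the 3 motifs were searched separately, and a match is a description of the sequence, not a bound site.

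The 2 nuclei libraries often held different genes. Of the 76 genes, 33 were counted in every library, against 10039 of all 23229 annotated genes, a similar share. Among genes with a count the share was lower, 33 of 75 against 10039 of 17096. A further 23 were counted in nuclei 1 and whole sperm but not in nuclei 2, against 2011 of all annotated genes. Another 11 were counted in nuclei 2 and whole sperm but not in nuclei 1, against 1017. In all, nuclei 1 held 56 of these genes, nuclei 2 held 45 and whole sperm held 74. Over all annotated genes these numbers were 13897, 12259 and 14630. Of the 36 genes with at least 20 counts in nuclei 1, 12 (33.3%) had none in nuclei 2, against 13.6% of all annotated genes with as many counts. Of the 26 genes with at least 20 counts in nuclei 2, 6 (23.1%) had none in nuclei 1, against 8.56%. Whole sperm lacked none of these 36 or 26 genes, where it lacked 6.64% and 5.52% of all annotated genes.

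Conversely, 13 of the 58 genes with at least 20 counts in whole sperm (22.4%) had none in nuclei 1, 25 (43.1%) had none in nuclei 2, and 5 (8.62%) had none in either, against 11.3%, 16.5% and 5.74% of all annotated genes. Since these genes have few counts, the shares were also taken within 20 to 200 counts, a band chosen after the data were seen. There, 12 of 34 genes of nuclei 1 (35.3%) were at 0 in nuclei 2, against 18.1% of all annotated genes, with median counts of 47.5 and 60.0. In the other direction, 6 of 20 genes of nuclei 2 (30%) were at 0 in nuclei 1, against 12.8%, with medians of 54.0 and 68.0. Of 52 genes of whole sperm in this band, 13 (25.0%) were at 0 in nuclei 1, against 17.0%. In nuclei 2, 24 of the 52 (46.15%) were at 0, against 24.59%, with medians of 77.0 and 73.0. The distance from all annotated genes was thus smaller within the band for whole-sperm genes.

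**Figure D2:**
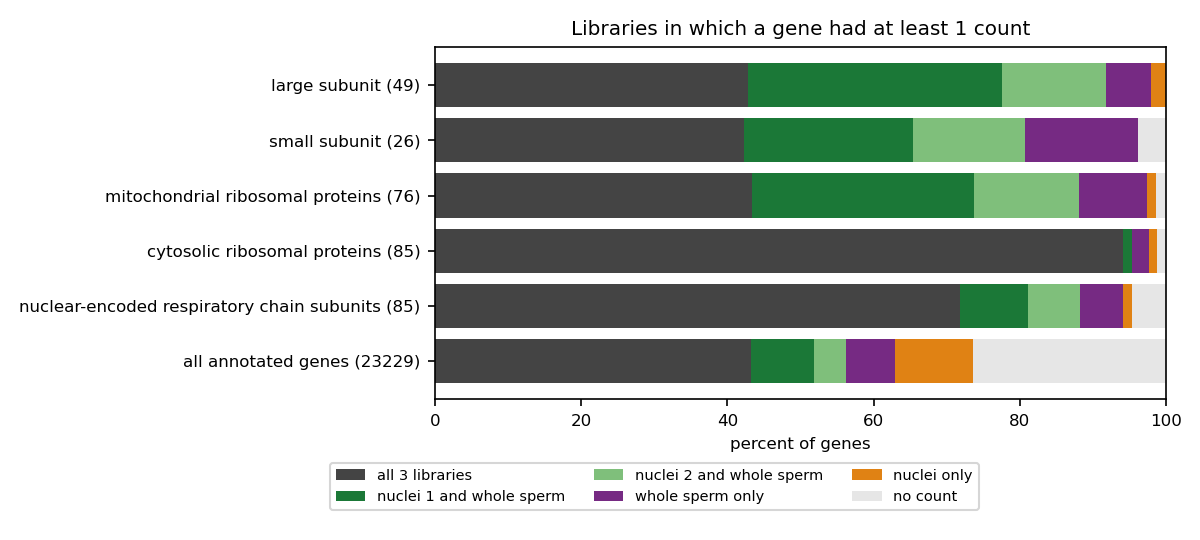
Percent of genes with at least 1 count in all 3 libraries, in nuclei 1 and whole sperm, in nuclei 2 and whole sperm, in whole sperm only, in nuclei only, or in none, for each gene group (number of genes in brackets). In all 3 libraries were counted 33 of 76 mitochondrial ribosomal protein genes, 80 of 85 cytosolic ribosomal protein genes and 61 of 85 respiratory chain genes. Of all annotated genes, 10039 of 23229 were. The groups differ in abundance: 18 mitochondrial ribosomal protein, 75 cytosolic ribosomal protein and 54 respiratory chain genes had a mean of at least 10 CPM.

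The genes at 0 in nuclei 2 with at least 20 counts in nuclei 1 were led by Mrpl15, the counterpart of bacterial L15, with 176, 0 and 44 counts. In nuclei 1 it stood at 33.6 CPM and in whole sperm at 5.08 CPM, so the nuclei libraries lay on opposite sides of whole sperm. Mrpl27, whose bacterial counterpart reaches into the peptidyl transferase centre, had 87, 0 and 159 counts. Mrps30 had 73, 0 and 142 counts, Mrps18c had 64, 0 and 130, and Mrpl21 had 62, 0 and 75. For these 4 genes nuclei 1 was near whole sperm in CPM (16.6 against 18.4 for Mrpl27, 13.9 against 16.4 for Mrps30, 12.2 against 15.0 for Mrps18c and 11.8 against 8.66 for Mrpl21), so nuclei 2 alone set the difference.

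Further genes at 0 in nuclei 2 had moderate counts in nuclei 1. Mrpl32 had 41, 0 and 101 counts, Mrpl42 had 40, 0 and 86, Mrps31 had 37, 0 and 144, and Mrpl3 had 39, 0 and 35. In CPM, nuclei 1 was below whole sperm for Mrpl32, Mrpl42 and Mrps31 and above it for Mrpl3. It was also above whole sperm for the remaining 2 of the 12 with at least 20 counts there, Mrpl10 (46, 0 and 22) and Mrps33 (61, 0 and 29), while Mrps6 was described above. Counts were few in nuclei 1 for Mrpl50 (15, 0 and 106), Mrpl4 (11, 0 and 125), Mrpl44 (7, 0 and 103), Mrpl36 (6, 0 and 82) and Mrpl18 (4, 0 and 63). For Mrpl45, whose product helps hold the ribosome at the inner membrane, and for Mrps22 a single read was counted in nuclei 1, none in nuclei 2, and 115 and 41 in whole sperm.

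At 0 in nuclei 1, Mrpl17, the counterpart of bacterial L17, had 53 counts in nuclei 2 and 162 in whole sperm. Mrps16 had 55 and 49, Mrpl14 had 28 and 55, and Mrpl52 had 24 and 83. Mrpl16 had 13 and 40, Mrps28 had 13 and 78, and Mrpl24 had 7 and 84. Mrpl22 had 62 counts in nuclei 2 and 6 in whole sperm, and Mrps9 had 2, 115 and 7 counts, so both were far higher in nuclei 2 than in either other library. The opposite extreme was Mrpl12, part of the ribosomal stalk, with 98, 9 and 12 counts, high in nuclei 1 alone.

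**Figure D3:**
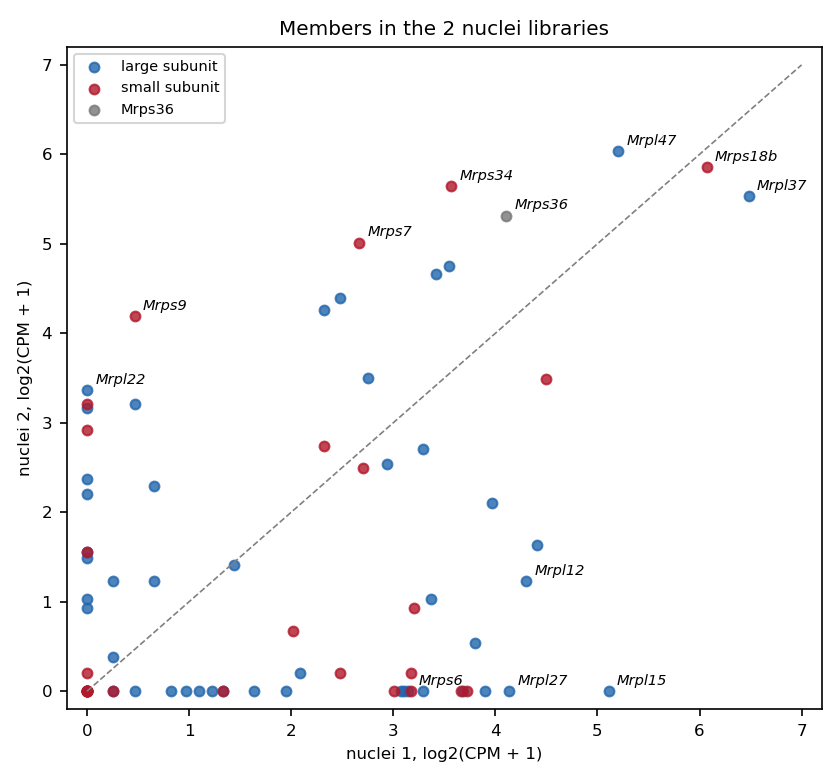
Level of each mitochondrial ribosomal protein gene in nuclei 1 (horizontal) against nuclei 2 (vertical), both as log2(CPM + 1), coloured by subunit, with the dashed line at equal levels. Genes on an axis had no count in 1 nuclei library, such as Mrpl15 and Mrpl27 in nuclei 2 and Mrpl22 in nuclei 1, while Mrps18b and Mrpl47 lie closer to the line.

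Across the 75 genes with a count, log2(CPM + 1) in nuclei 1 and nuclei 2 had a Pearson correlation of 0.32 and a Spearman correlation of 0.17. Between nuclei 1 and whole sperm these were 0.43 and 0.37, and between nuclei 2 and whole sperm 0.27 and 0.12. Over all 17096 annotated genes with a count, which span a wider range of levels, Pearson correlations were 0.73, 0.69 and 0.69. These are correlations across genes of single libraries, and genes are not independent replicates.

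Per length, in the authors' RPKM values (reads scaled to transcript length and library size by the authors), the median gene stood at 0.738, 0.262 and 3.11 RPKM. The deposited RPKM do not follow from the deposited counts by 1 factor per library and are a separate set of levels: Mrps11 had no count in whole sperm but 0.0225 RPKM, and Mrps18c had 64 counts in nuclei 1 and 130 in whole sperm but 15.6 and 15.45 RPKM. Values were listed at 0 for 20, 31 and 1 of the 76 genes, and 4, 6 and 12 genes reached 10 RPKM. Mrpl47 had 20.9, 40.9 and 26.3 RPKM and ranked 1 of 76 in both nuclei libraries and 3 in whole sperm. Mrps18b had 19.99, 19.81 and 32.2 RPKM and ranked 1 in whole sperm. Next in whole sperm came Mrps6, with 2.09, 0 and 31.3 RPKM, and below Mrpl47 came Mrpl37, with 13.8, 7.50 and 20.3 RPKM. In whole sperm the values ran from the 32.2 RPKM of Mrps18b down to Mrpl13, the single gene listed at 0 there. Over the 76 genes the median difference of nuclei from whole sperm was -1.95 on the log2(RPKM + 0.1) scale, and 60 of 76 were below 0. Over annotated genes the median was -0.67, with 62.6% below 0. This difference averages the logarithms of the 2 nuclei libraries, whereas the CPM difference takes the logarithm of their mean level. A 0 in 1 nuclei library thus lowers the RPKM difference more, and the 2 medians are not comparable. Mrpl15, for example, was at 1.67 by CPM and -1.08 by RPKM. Limma called none of them, as it called none of 17430 annotated genes (0.0%). An unadjusted limma p under 0.05 was found for 11 of the 76, against 15.0% of annotated genes.

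Exons of 32 of the 76 genes overlap an exon of another gene, for 27 of them on the opposite strand and for 23 of them a protein-coding gene. The strand setting of the authors' counting is not given in the sources used here, so reads of such pairs cannot be told apart. Mrpl9 overlaps Oaz3, a sperm-specific antizyme gene, which had 1876, 1878 and 1449 counts. Mrpl47 overlaps Ndufb5, with 0, 4 and 274 counts, and Actl6a, with 52, 39 and 290, and both differ from Mrpl47 in the order of the libraries. Mrps34 overlaps Nme3, with 175, 927 and 122 counts, which like Mrps34 was highest in nuclei 2, and Mapk8ip3, on the opposite strand, with 490, 128 and 647 counts, which was lowest there. The 31 overlapping genes with a count had a median log2 difference of -0.75, with 21 below 0 (-0.23 with nuclei 1 by itself, -2.44 with nuclei 2). The 44 others had a median of -0.94, with 30 below 0 (-1.12 and -1.67). Both medians were below 0, and the part of overlapping genes in these values was not tested.

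Compared with other gene groups, 81, 81 and 83 of 85 cytosolic ribosomal protein genes were counted in nuclei 1, nuclei 2 and whole sperm, and their median log2 difference was -0.62, with 55 of 84 below 0. For 85 nuclear-encoded respiratory chain subunits the median was -1.53, with 63 of 81 below 0. EdgeR called none of either group. An unadjusted edgeR p under 0.05 for a lower level in nuclei was found for 9 of 81 cytosolic genes tested. It was found for 10 of 79 respiratory chain genes, 2 of 68 mitochondrial ribosomal protein genes and 2.33% of all annotated genes. For a higher level the numbers were 2, 0 and 0, against 3.11%. From nuclei 1 alone the median was -0.56 for the cytosolic ribosomal proteins, -1.36 for the respiratory chain and -0.71 for the mitochondrial ribosomal proteins. From nuclei 2 alone these medians were -0.58, -1.43 and -2.01. The mitochondrial ribosomal proteins thus had the lowest median with nuclei 2 but not with nuclei 1. The groups also differed in abundance. A mean of at least 10 CPM was reached by 18 of 76 mitochondrial ribosomal protein genes, 75 of 85 cytosolic ones and 54 of 85 respiratory chain genes. The part of low counts in these medians was not tested. Differences between the groups were not tested.

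**Figure D4:**
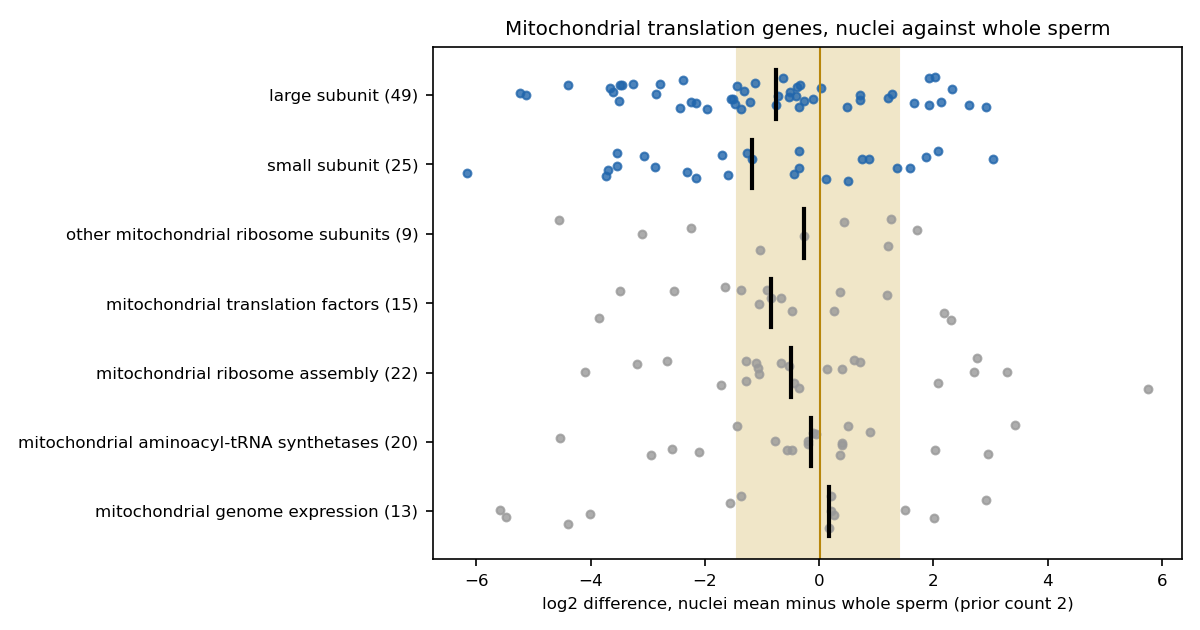
Log2 difference between the nuclei mean and whole sperm (prior count 2) for genes of mitochondrial translation, 1 point per gene with a count (number in brackets); black bars are medians. The shaded band holds the middle quartiles of all annotated genes, -1.44 to 1.40, and its line their median, 0.01; the medians of the large and small subunits lie at -0.75 and -1.17.

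Other genes of mitochondrial translation were spread on both sides of 0, and edgeR called none of them. Of 9 further ribosome subunits with other names, 5 were below 0 and the median was -0.27 (-1.55 with nuclei 1 by itself but 0.14 with nuclei 2, so the sign rests on the library). Dap3, a GTP-binding small-subunit protein, had 478, 1089 and 478 counts, with both nuclei libraries above whole sperm (log2 1.21, SE 0.86, edgeR adjusted p = 0.909). In the same list Chchd1 had 7, 1 and 209 counts, with both nuclei libraries below whole sperm, and Aurkaip1 had 48, 122 and 144. For 15 translation factors the median was -0.84 (-0.49 and -2.18 from each nuclei library alone), with 10 below 0. Among these, Lrpprc, which stabilises mitochondrial messenger RNAs, had 162, 29 and 275 counts, Mrrf, the ribosome recycling factor, had 150, 210 and 113, and Gfm2 had 0, 133 and 165.

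Ribosome assembly genes had a median of -0.49 (-0.14 and -0.87 alone), with 13 of 22 below 0. Nsun4, an rRNA methyltransferase, had 438, 334 and 379 counts, Grsf1 had 120, 207 and 141, and Mterfd1 had 126, 55 and 179. In this list 1 gene had an unadjusted edgeR p under 0.05 for a higher level in nuclei: Noa1, a GTPase, with 95, 86 and 0 counts (unadjusted p = 0.0405, adjusted p = 0.798), named after its value was seen. The 20 mitochondrial aminoacyl-tRNA synthetase genes had a median of -0.15 (-0.42 and -0.18 alone), with 12 below 0. Nearly all of their counts fell on Lars2, with 349783, 283797 and 512016, while Nars2 had 62, 496 and 282 and Iars2 had 54, 285 and 321. Whether the reads counted on Lars2 came from its messenger RNA was not tested. Genes that copy and express the mitochondrial genome had a median of 0.17, with 6 of 13 below 0, but the median was below 0 from either nuclei library alone (-1.38 and -0.64). Tfam, which packages mitochondrial DNA and starts its transcription, had 633, 482 and 721 counts, or a log2 fold change of 0.21 (SE 0.84, edgeR adjusted p = 1.00). In the same list Top1mt had 101, 132 and 58 counts and Peo1, the mitochondrial DNA helicase, had 105, 114 and 19.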

How the data were processed

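The build was mm10 and the tools named are TopHat2 2.0.12, HTSeq, Cufflinks 2.1.1, DESeq2, bedtools, CASAVA 1.8.2 and SAMtools 0.1.19, per the submitters' processing notes, which give no roles here. The deposited count columns are whole reads per gene or region, not normalized by the authors, and the RPKM columns are the authors' own values per transcript length and library size. Spike-ins, reads outside features (34.4% of the whole-sperm file total), ambiguous reads (1.97%) and 1 row found in 1 table only were left out.

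Counts of all 25610 rows were fitted with edgeR 4.0.16 (R 4.3.3; TMM, filterByExpr, quasi-likelihood test, Benjamini-Hochberg threshold 0.05), with 1 residual degree of freedom, whole sperm being assumed to vary like nuclei. RPKM were tested with limma 3.58.1 on log2(RPKM + 0.1). Alternatives were other scalings, filters and prior counts, DESeq2 1.42.0 and each nuclei library alone. Folds against 0 use a floor of 3 counts per library. Gene positions and overlaps come from GENCODE and start regions from RefSeq.

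The genes and lists were chosen with earlier results of these data known. Genes given in full were the 5 most abundant per subunit, the 3 largest differences in each direction per subunit among tested genes averaging at least 10 CPM, those at 0 in 1 or both nuclei libraries with at least 30 counts in whole sperm, and the 4 that differed most between nuclei libraries with at least 20 counts in 1; of other lists, up to 3 with the highest mean.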

Additional observations from a re-analysis of the deposited data

How the results depend on the processing

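Of 37 genes given in full, 25 kept the direction of their log2 difference under every alternative run. DESeq2 size factors, library size alone, leaving out the 10 most abundant features, a prior count of 0.5 and DESeq2 without its independent filtering reversed none. Spike-in scaling called 2 genes and moved the medians to -2.10 (the 75 genes with a count), -2.10 (large subunit) and -2.36 (small subunit), and it reversed Mrpl47 (-0.72), Mrpl54 (-0.12), Mrps18b (-1.31), Mrps34 (-0.053) and Mrps5 (-0.52). With 1 nuclei library left out, the median ranged from -2.01 to -0.71 over all the genes, -1.87 to -0.50 in the large subunit and -2.44 to -1.04 in the small, the genes below 0 from 50 to 57, the summed share from -0.65 to -0.55 and the RPKM median from -2.36 to -1.44. The sign then depended on the nuclei library kept (value without nuclei 1, then without nuclei 2) for Mrpl15 (-4.36, 2.66), Mrps16 (0.52, -4.37), Mrps7 (0.41, -2.08), Mrpl21 (-5.10, 0.44), Mrpl3 (-4.04, 0.84), Mrpl37 (-0.82, 0.14), Mrpl9 (-2.91, 0.21) and Mrps34 (2.08, -0.07). At a mean of at least 10 CPM, 11 of 18 genes (61.1%) were below 0, against 52.7% of annotated genes at that level. Their median was then -0.49, against -0.115, so the distance from all annotated genes was smaller than in the main setting. Without the 10 most abundant features the summed share differed by -0.81. Pseudocounts of 1 and 0.01 gave RPKM medians of -1.02 and -3.41. The causes of these changes were not tested.

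DESeq2's own filter left none of the 68 tested genes with an adjusted p, so its p-values were adjusted over all features, an alternative added after the data were seen. Calls could not be recomputed with 1 nuclei library left out, since no residual degree of freedom remains. No paired analysis was possible because whole sperm has 1 library. With a median of 15.5 and 5.0 counts per gene in the nuclei libraries, a gene at 0 is not shown to be absent.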
